A study of Drosophila melanogaster with 70 samples.

Results

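Of 2591 domain boundaries mapped by Hi-C in Drosophila melanogaster embryos at stage 5 after a control RNAi, 552 had no counterpart after maternal RNAi against mof. A boundary is a point on a chromosome arm that separates 2 stretches of chromatin, each of which makes contacts mostly within itself, and such a stretch is called a domain. Boundaries were chosen by position alone: a control boundary belonged to the 552 when no midpoint of the mof RNAi list lay within 2.5 kb of its own midpoint on the same arm. They are called control-only boundaries, and the other 2039, which had such a counterpart, are called shared. Control-only boundaries made up 21.3% of the control list (95% Wilson interval 19.8 to 22.9). They were split by the stage 15 list: 194 had a stage 15 midpoint within 2.5 kb, called a stage 15 partner, and 358 had none. The mof RNAi list held 2499 boundaries and the stage 15 list 2785, all on arms 2L, 2R, 3L, 3R and X.

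In situ Hi-C cuts crosslinked chromatin with an enzyme, here DpnII, joins DNA ends that were near each other in the nucleus and sequences the joined pairs. The mof RNAi embryos of stage 5 (2 libraries) came from mothers that carried a maternal tubulin Gal4 driver (stock 7063) and an RNAi line against mof (stock 58281). The control embryos of stage 5 (3 libraries) came from mothers with the same driver and a control RNAi line (stock 36304). Stage 5 is the blastoderm, taken in the middle of nuclear cycle 14, and these embryos were not sexed. The stage 15 embryos, 14 to 16 h after egg laying, came from mothers with the same RNAi lines and a maternal tubulin Gal4 driver of stock 7062, in a background with a GFP reporter of Sxl, by which females (GFP positive) and males (GFP negative) were separated. They gave 8 libraries, 2 for each combination of sex and of mof or control RNAi, and the labels tie all 8 to 1 list without saying which were pooled. Each library came from 50 to 100 embryos sorted by hand, so values are averages over all cell types of pooled embryos. The driver acts in the mother, so the depletion is of the maternal supply. In the mof RNAi samples the strain field names a control RNAi mother beside the mof stock number, and the groups here follow the sample titles. With 1 pooled list per condition there was no spread between replicates, no p-value was computed, and read depth is unknown.

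MOF is the acetyltransferase that places the acetyl group on lysine 16 of histone H4, either within the MSL complex, which raises transcription of the single male X, or within the NSL complex, found at promoters of active genes. In flies, domain boundaries often lie at the ends of genes that are active in most cells and are bound by insulator proteins such as BEAF-32, CP190 and Su(Hw). Domains become visible in the early embryo around the time when its own genome is switched on, near the blastoderm stage.

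Most control-only boundaries lay over 10 kb from the nearest boundary of the mof RNAi list, and the rule excluded distances up to 2.5 kb. The distance had a median of 23.4 kb (quartiles 12.5 and 39.5 kb) and ran up to 160 kb. It was at most 5 kb for 61 boundaries, over 5 and up to 10 kb for 47, over 10 and up to 20 kb for 149, over 20 and up to 50 kb for 199 and over 50 kb for 96. At the edge of the rule, 47 control-only boundaries lay exactly 5 kb from the nearest mof RNAi boundary, with a median score of -0.16. The 223 shared boundaries at exactly 2.5 kb had a median score of -0.25. The score is the authors' own deposited value per boundary, on a scale that is not stated. The 14 control-only boundaries at more than 2.5 and less than 5 kb had a median score of -0.15. A stage 15 partner was held by 8 of these 14 (57.1%), by 40.4% of the 47 and by 59.6% of the 223.

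**Figure D1:**
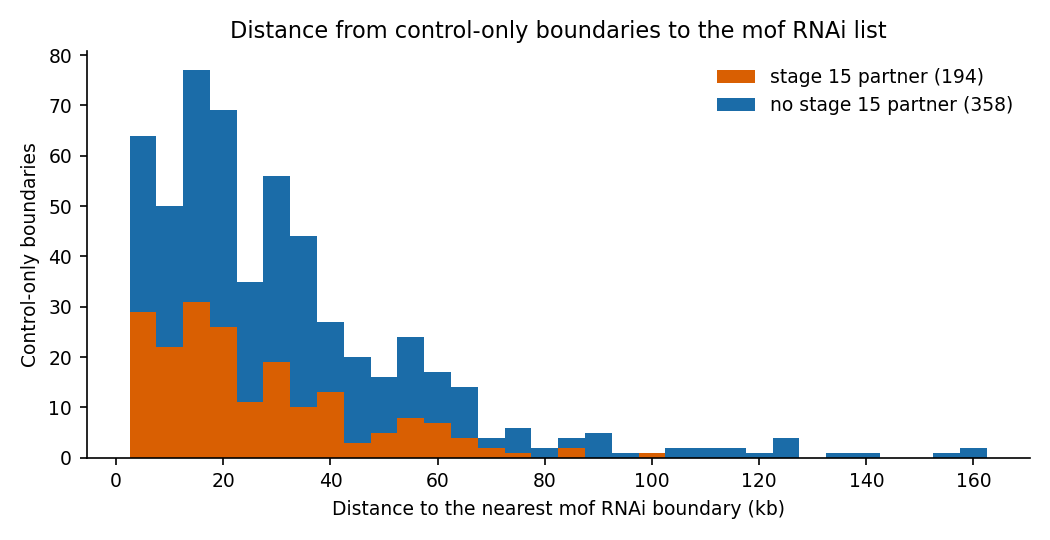
Number of control-only boundaries (vertical axis) by distance in kb to the nearest boundary of the mof RNAi list (horizontal axis), in bins of 5 kb, stacked by whether a stage 15 boundary lay within 2.5 kb (194) or not (358). The median distance was 17.7 kb for those with a stage 15 partner and 27.5 kb for those without, and both kinds occur at short and at long distances.

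Scores of control-only boundaries sat at the less negative end of the control list. Their median was -0.01, against -0.37 for shared boundaries, and the 2 ranges overlapped widely (-0.77 to 1.47 and -1.18 to 1.20). A negative score was held by 51.4% of control-only and 83.9% of shared boundaries, beside 77.0% of the whole list. In the tenth of the list with the most negative scores 7 of 259 boundaries were control-only, and in the tenth with the least negative scores 133 of 260. The score comes from the control map that the rule also used, so these values describe the choice and support nothing by themselves.

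Fewer control-only than shared boundaries were found again at stage 15. A stage 15 partner was present at 194 of 552 control-only boundaries (35.1%, 31.3 to 39.2) and at 1404 of 2039 shared ones (68.9%, 66.8 to 70.8), beside 61.7% of the whole control list. The difference was -33.7 percentage points (95% Newcombe interval -38.1 to -29.2). The stage 15 list had no part in choosing the control-only boundaries, though both matches start from the same control list, and the intervals reflect counting error alone and take each boundary as independent of the others. The other 358 control-only boundaries had no partner, as had 38.3% of the whole list. The difference ran the same way on every arm: -28.0 points on 2L, -35.3 on 2R, -35.9 on 3L, -35.1 on 3R and -31.9 on X, with no interval reaching 0. From a control-only boundary the nearest stage 15 boundary was a median of 10.0 kb away (7.5 to 12.5), and from a shared one a median of 0 kb.

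A difference was also seen within groups of neighbouring score deciles, though scores still varied within a group. Among boundaries of deciles 1 to 3, those with the most negative scores, 41 of 59 control-only boundaries (69.5%) and 80.4% of shared ones had a stage 15 partner, a difference of -10.9 points (-23.8 to -0.168). In deciles 4 to 7 the shares were 50.9% for control-only and 71.4% for shared boundaries (-20.5 points, -28.5 to -12.5). In deciles 8 to 10 they were 20.7% for control-only and 45.8% for shared boundaries (-25.1 points, -31.3 to -18.6). Within this group control-only boundaries rose from 32.4% of decile 8 to 51.2% of decile 10. The share of shared boundaries with a partner fell from 55.4% to 28.3%. In deciles 8, 9 and 10 singly the difference was -26.9, -28.8 and -12.6 points. The part of the score within groups was not tested. In the first decile the difference was 3.97 points with an interval of -33.3 to 16.8, on only 7 control-only boundaries. In deciles 3, 5 and 6 the interval also spanned 0.

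**Figure D2:**
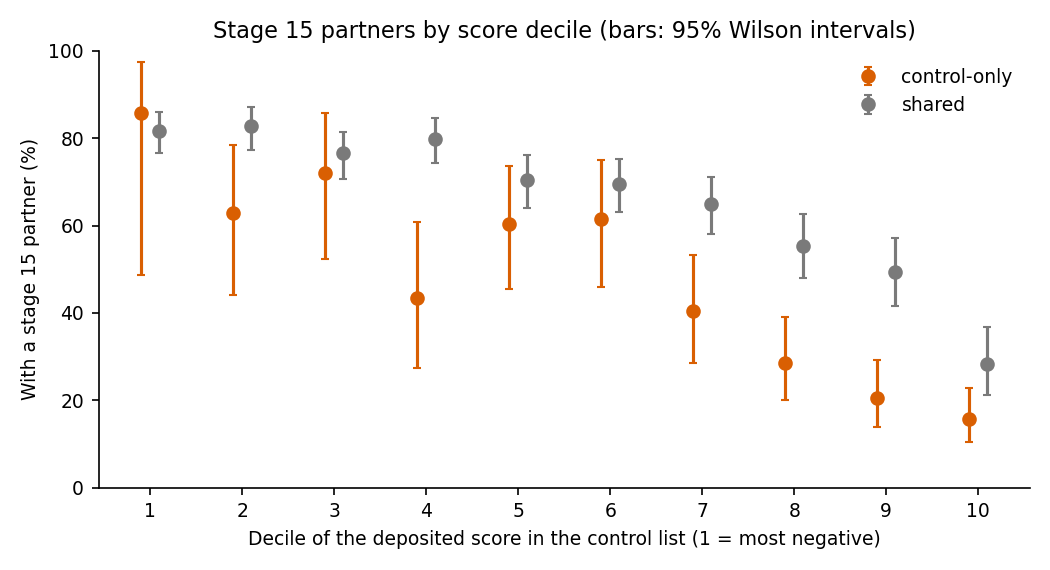
Share of boundaries with a stage 15 partner (vertical axis, percent) in each decile of the deposited score of the control list (horizontal axis, 1 the most negative), for control-only and shared boundaries, with 95% Wilson intervals as bars. In every decile but the first the control-only point lies below the shared one, and the intervals of the single deciles are wide where few boundaries are control-only (7 in the first decile, 133 in the last).

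Parts of the map lacked bins, and control-only boundaries lay there more often. Boundary names count bins of 2.5 kb, and where fewer numbers than bins separated neighbouring control boundaries the missing bins were read as left out of the map. Such left-out bins lay in a domain beside 64.5% of control-only and 50.4% of shared boundaries (difference 14.1 points, 9.51 to 18.6), against 53.4% of the whole list. Boundaries wider than 1 bin were 12.1% of control-only and 3.58% of shared ones. Where the control map lacked no bins, 41.8% of 196 control-only and 74.8% of 1012 shared boundaries held a stage 15 partner. The difference was -33.0 points (-40.1 to -25.4). Bins left out of the mof RNAi map were not examined, here or below.

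Control-only boundaries lay less often at gene ends than shared ones, and no such difference was detected among the most negative scores. An end of a protein-coding gene lay within 2.5 kb of 311 of 552 control-only boundaries (56.3%, 52.2 to 60.4) and of 1660 of 2039 shared ones (81.4%, 79.7 to 83.0), beside 76.1% of the whole list. The difference was -25.1 points (-29.5 to -20.6). Among control-only boundaries a gene end was near 155 of 194 with a stage 15 partner (79.9%) and 156 of 358 without one (43.6%), 36.3 points apart (28.2 to 43.4). The same split of shared boundaries gave 89.7% with a partner and 63.0% without. Control-only boundaries with a partner had a median score of -0.24 and those without 0.08. In deciles 1 to 3 a gene end was near 92.7% of 41 control-only boundaries with a partner and 88.9% of 18 without. That difference was 3.79 points, with an interval of -10.7 to 26.0 that spans 0. It was 26.9 points (14.0 to 38.9) in deciles 4 to 7 and 26.6 points (13.2 to 38.7) in deciles 8 to 10. The median distance to a gene end was 0.69 kb for control-only boundaries with a stage 15 partner and 4.42 kb for those without. In deciles 1 to 3 of the score the shares were 91.5% for control-only and 92.5% for shared boundaries, a difference of -0.954 points whose interval of -11.0 to 4.31 spans 0. In deciles 4 to 7 it was -10.1 points (-17.5 to -3.67) and in deciles 8 to 10 -16.5 points (-23.3 to -9.38). Where no bins were left out the difference was -13.2 points (-19.9 to -7.35). The part of left-out bins and of the score in either gap was not tested.

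The stage 15 partner was rarer both at gene ends and away from them. At a gene end it was found for 49.8% of control-only and 75.9% of shared boundaries (-26.1 points, -31.9 to -20.1). Away from gene ends it was found for 16.2% of control-only and 38.0% of shared boundaries (-21.8 points, -28.3 to -14.8).

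**Figure D3:**
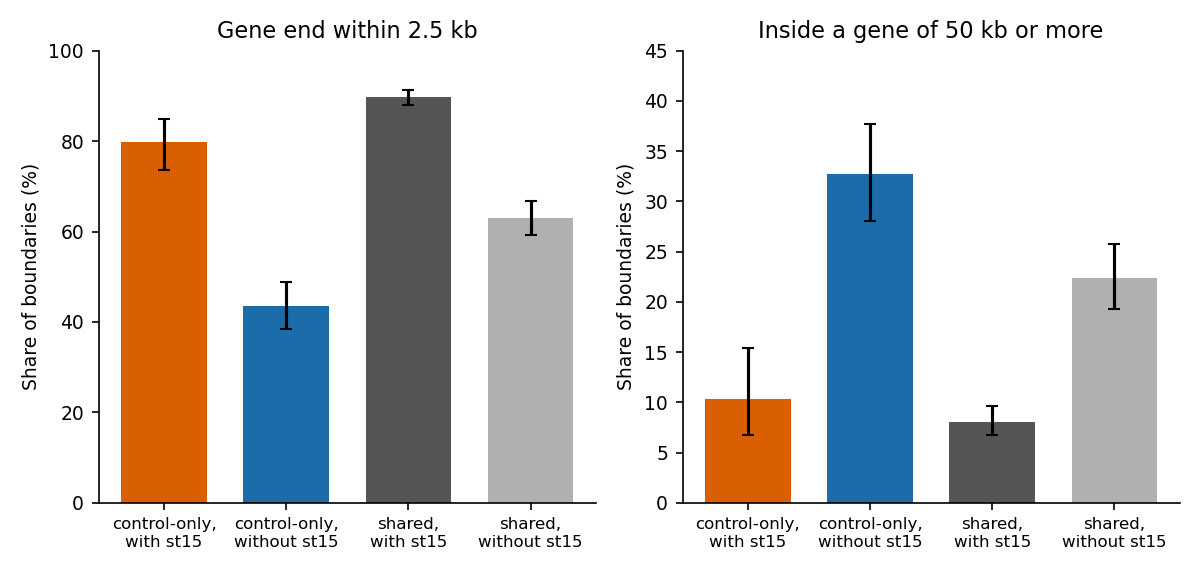
Share of boundaries (vertical axes, percent) with a protein-coding gene end within 2.5 kb (left) and inside a gene of 50 kb or more (right), for control-only and shared boundaries split by whether a stage 15 boundary lay within 2.5 kb (with st15, without st15), with 95% Wilson intervals. Control-only boundaries without a stage 15 partner had the lowest share at gene ends (43.6%) and the highest inside long genes (32.7%).

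Over the whole list, control-only boundaries lay inside long genes more often than shared ones, but not among boundaries with negative scores. The midpoint was inside a protein-coding gene of any length for 64.5% of control-only and 68.3% of shared boundaries, a difference of -3.83 points whose interval of -8.36 to 0.564 spans 0. It was inside a gene of 50 kb or more for 137 control-only (24.8%) and 255 shared boundaries (12.5%), a difference of 12.3 points (8.57 to 16.3), beside 15.1% of the whole list. Of the control-only boundaries, 20 of 194 with a stage 15 partner (10.3%) and 117 of 358 without one (32.7%) were in such genes, a difference of -22.4 points (-28.5 to -15.5). That split was not examined within groups of the score. For control-only minus shared boundaries by score, the interval of the difference lay above 0 only in deciles 8 to 10. There the shares were 38.0% of control-only and 25.6% of shared boundaries (12.4 points, 5.79 to 19.0). In deciles 4 to 7 they were 7.69% of control-only and 11.1% of shared boundaries, and in deciles 1 to 3 1.69% of control-only and 5.99% of shared boundaries, with both intervals of the difference spanning 0. Among all boundaries with negative scores the difference was 0.621 points (-2.73 to 4.89), and in the most negative 50% of the list it was -4.02 points (-6.47 to 0.675). Where no bins were left out the shares were 13.8% of control-only and 6.23% of shared boundaries (7.55 points, 3.10 to 13.2).

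The protein-coding genes that held 3 or more control-only boundaries are described here, a choice made after their values were seen. Counts are given as control-only of all control boundaries inside the gene. Genes near centromeres came first: Myo81F, which spans 1966 kb on 3R, held 9 of 14. CG17684 on 2R held 7 of 8 and Pzl, a gene of 709 kb on 3R, held 5 of 6. Then came lovit (434 kb, 3L), a transporter gene of photoreceptors, with 4 of 9. Both l(3)80Fg (216 kb, 3L) and CG15465 (169 kb, X) held 4 of 4. The control map lacked bins in the domains beside boundaries of all of these. The highest numbers were 77 in Myo81F, 22 in CG17684, 41 in Pzl, 19 in lovit, 11 in l(3)80Fg and 7 in CG15465. Both lovit and l(3)80Fg are also near a centromere. Of the others, dpr6 (165 kb, 3L) and dpr8 (140 kb, X), which code for immunoglobulin proteins on the surface of neurons, each held 3 of 3. DIP-lambda (379 kb, 2R, near the centromere, with up to 13 left-out bins), of the family that binds Dpr proteins, held 3 of 7. Another gene of the immunoglobulin superfamily, side-VI (77.8 kb, 3R), held 3 of 3. The polarity scaffold gene scrib (67.7 kb, 3R) held 3 of 3 and SKIP (162 kb, 3R) held 3 of 4. Left-out bins beside their boundaries were up to 7 in SKIP, 6 in scrib, 5 in dpr6, 5 in dpr8 and 3 in side-VI. These genes were chosen by boundaries that the mof RNAi list lacked, so a lower count there follows in part from the choice. Of the 24 genes with 2 or more control-only boundaries, the mof RNAi list had fewer boundaries than the control list in 18, as many in 4 and more in 2. Those with more were Myo81F, with 16 in the mof RNAi and 14 in the control list, and CG1677, with 4 in the mof RNAi and 3 in the control list. In kirre both lists had 5, in Snap25 both had 4 and in Rbp6 both had 3. Inside side-VI the mof RNAi list had 0 boundaries, the control list 3 and the stage 15 list 1, and scrib had the same counts. At scrib, however, a mof RNAi boundary outside the gene lay 3.44 kb from 1 of the 3 control boundaries. Inside dpr6 the mof RNAi list had 2 boundaries, the control list 3 and the stage 15 list 4. Of genes with fewer, the Wnt receptor gene fz2 (94.4 kb, 3L) and tei (126 kb, 2R) each held 2 control boundaries, both control-only, and 0 of the mof RNAi list, while the stage 15 list had 1 in fz2 and 4 in tei.

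What the mof RNAi list held in place of control-only boundaries was read from runs, that is, control-only boundaries that follow each other between 2 shared ones. The 552 boundaries fell into 392 runs, of which 293 were single boundaries, 61 pairs, 21 runs of 3, 12 of 4, 4 of 5 and 1 of 6. For 230 boundaries (41.7%) the mof RNAi list had no boundary in the run, so the control domains were joined in that list. For 137 (24.8%) it had as many boundaries at other positions, for 141 (25.5%) fewer and for 44 (7.97%) more. These counts use the same 2 lists as the rule and are a description. A stage 15 partner was held by 38.7% of joined, 36.5% of replaced, 29.8% of fewer and 29.5% of more. Left-out bins lay beside 48.7% of joined and 72.3%, 78.7% and 77.3% of the replaced, fewer and more classes.

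In 197 of 199 such runs the mof RNAi list had a boundary on both sides, and the joined domain had a median length of 77.5 kb (quartiles 57.5 and 112.5 kb), up to 261 kb, with 65 of 100 kb or more. A joined domain is made of 2 or more control domains, so its length follows from the choice and is not to be read against single domains, whose median was 40.0 kb in the mof RNAi list, 38.6 kb in the control list and 35.0 kb in the stage 15 list. The stretch between the mof RNAi boundaries on either side of a control midpoint had a median of 82.5 kb for control-only (79.7 to 87.5) and 82.5 kb for shared boundaries (80 to 85), and for most shared ones that stretch holds a mof RNAi boundary at the midpoint itself. In 86 of the 197 runs with a mof RNAi boundary on both sides, at least 1 of the missing boundaries was present at stage 15. Among the longest, chosen after their values were seen, the 3 boundaries in side-VI were missing from a mof RNAi domain of 227 kb and 3 in SKIP, which codes for a potassium channel interacting protein, from one of 220.0 kb. A run of 4 that begins at tei was missing from a domain of 232.5 kb.

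Where 1 boundary stood in place of another, the control position was the one found at stage 15 more often than the mof RNAi position, but the interval spanned 50%. There were 91 such replacements, with the 2 positions a median of 10.0 kb apart (quartiles 5 and 27.5 kb, highest 275 kb). Whether a boundary moved between the 2 positions was not tested. A stage 15 boundary lay within 2.5 kb of the mof RNAi position alone in 20, of the control position alone in 34, of both in 5 and of neither in 32. The control position thus took 63.0% of the 54 decided cases (49.6 to 74.6). A gene end lay near the mof RNAi position alone in 15, near the control position alone in 21, near both in 33 and near neither in 22. Examples named after their values were seen show each kind. At Not3, a subunit gene of the CCR4-NOT deadenylase, the mof RNAi boundary lay 5 kb from the control one and had the stage 15 partner. At Arpc4, which codes for a subunit of the Arp2/3 complex of actin branching, the distance was also 5 kb. There the control position had the partner. Within the Hox gene Antp the 2 positions lay 5 kb apart, and neither position had a stage 15 partner or a gene end.

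**Figure D4:**
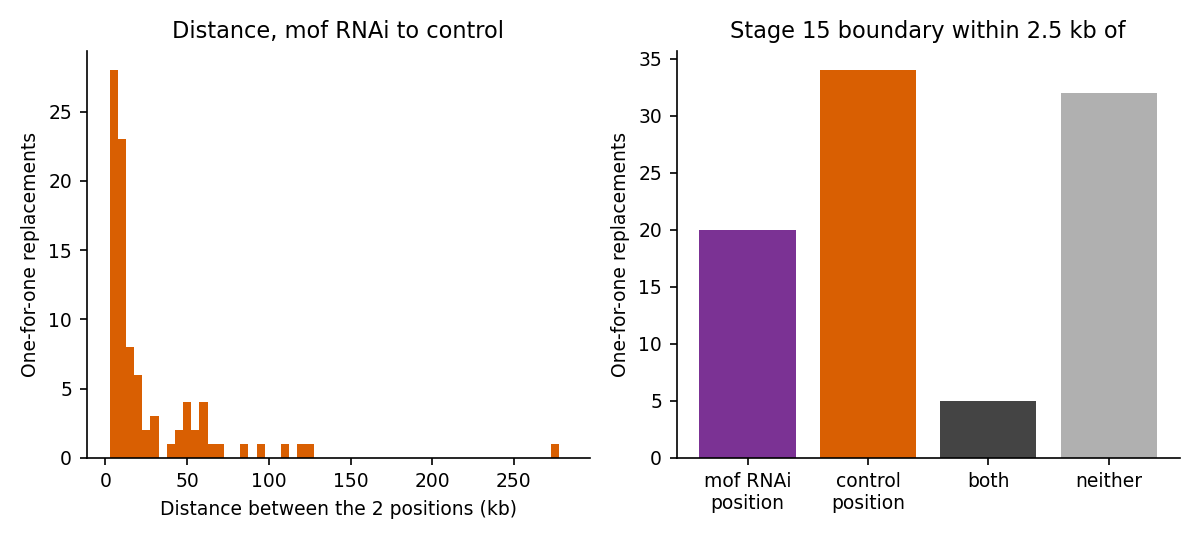
The 91 places where 1 control-only boundary was replaced by 1 boundary of the mof RNAi list. Left, number of replacements by distance in kb between the mof RNAi and the control position. Right, number with a stage 15 boundary within 2.5 kb of the mof RNAi position alone (20), the control position alone (34), both (5) or neither (32). The median distance was 10.0 kb, with quartiles of 5 and 27.5 kb and a highest value of 275 kb.

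The X chromosome had a share of control-only boundaries that could not be told apart from that of the autosomes over the whole list. Control-only were 111 of 463 boundaries on X (24.0%) and 441 of 2128 on autosomes (20.7%), a difference of 3.25 points (-0.821 to 7.67). The 4 autosomal arms ran from 19.4% on 2R to 23.3% on 3L. In the 50% of the list with the most negative scores the shares were 14.9% of 249 boundaries on X and 9.08% of 1046 on autosomes, and the interval of the difference, 5.78 points (1.46 to 11.0), did not reach 0. Stage 5 embryos were not sexed, so males and females are mixed in this value.

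The 10 control-only boundaries with the most negative scores and a stage 15 partner all lay at gene ends, near the 91.5% of control-only and 92.5% of shared boundaries in deciles 1 to 3. The most negative, near CG2059 on X (7283751 to 7286250 in dm6, score -0.77), had its stage 15 partner at the same midpoint and the nearest mof RNAi boundary 10.0 kb away. Next came wdn on 3R and NijA on 3L, which codes for the adhesion protein Ninjurin A, with mof RNAi boundaries 5 kb and 3.44 kb away. The boundary at Pomp, the proteasome maturation protein gene, on 2L (20786251 to 20788750, score -0.75) was 0.156 kb from the gene end, with a stage 15 boundary at its midpoint and a mof RNAi boundary 10.0 kb away. At Diap2, an inhibitor of apoptosis that acts in Imd immune signalling, on 2R (15933751 to 15936250, score -0.72), the nearest mof RNAi boundary was 47.5 kb away, and the mof RNAi domain across it measured 115 kb. At TfIIS, a transcription elongation factor gene on 2L (15058751 to 15061250, score -0.68), control domains of 20.0 and 52.5 kb were 1 mof RNAi domain of 72.5 kb. At Vps8, whose product acts in endosomal transport, on 3L (score -0.68), the nearest mof RNAi boundary was 55.0 kb away, the mof RNAi domain measured 165 kb, and 13 bins were left out of the neighbouring control domains. The other 3 of the 10 were CG9300 and CG42671 on 3L and CG8814 on 2L, all with a stage 15 boundary at the same midpoint and a gene end within 0.495 kb.

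Of the 10 most negative control-only boundaries without a stage 15 partner, all but that at Dpp10 had a gene end within 2.5 kb, near the 92.5% of shared boundaries in deciles 1 to 3. Those at fz4, dlg1, CG6961, beta-Spec and kirre are on X. That chromosome held 463 of the 2591 control boundaries, and 37 of the 132 control-only ones in the most negative 50% of the list. At Mnn1, the fly menin gene, on 2L (7056251 to 7058750, score -0.75), the nearest mof RNAi boundary was 15.0 kb and the nearest stage 15 boundary 7.5 kb away. At fz4, a frizzled family receptor gene (X, 7111251 to 7113750, score -0.66), control domains of 15.0 and 46.2 kb were 1 mof RNAi domain of 61.2 kb. At dlg1, which codes for the septate junction scaffold Discs large (X, 11368751 to 11371250, score -0.66), control domains of 20.0 kb lay on both sides, and the nearest mof RNAi boundary was 15.0 kb away, at one end of a mof RNAi domain of 35.0 kb. At CG6961 (X, score -0.64) the nearest mof RNAi boundary was 55.0 kb away, in a domain of 195 kb. At beta-Spec, the beta spectrin gene of the membrane skeleton (X, 17656251 to 17658750, score -0.63), both the nearest mof RNAi and the nearest stage 15 boundary were 5 kb away. At cav on 3R, which codes for a protein that caps telomeres, both were 10.0 kb away. At kirre, an immunoglobulin gene of myoblast fusion (X, score -0.61), they were 5 kb and 25.0 kb away. The rest were Rsph3 on 3L, CG32982 on 2L and Dpp10 on 2L, with scores of -0.68, -0.61 and -0.60.

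Genes at control-only boundaries were counted by list, beside the count for all protein-coding genes. Of 4368 protein-coding genes with an end within 2.5 kb of a control boundary, 647 (14.8%) were at a control-only one, 367 of them at one with a stage 15 partner and 280 at one without. Of the 647, 66 also had an end within 2.5 kb of a mof RNAi boundary. The lists below are short, and no test of any list was made.

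Of the listed regulators of the early embryo, sna alone had an end within 2.5 kb of a control-only boundary. Farther from gene ends, control-only boundaries also lay inside listed genes, 4.23 kb from an end of Antp and 58.2 kb from an end of fru. None of the 10 segmentation genes at a control boundary was at a control-only one, nor any of the 12 early zygotic and cellularization genes or the 5 Hox genes. Of 4 dorsoventral genes 1 was, sna, the repressor that sets the mesoderm, and its boundary (2L, 15476251 to 15478750, score -0.32) had the nearest mof RNAi and stage 15 boundaries both 22.5 kb away. Its control domains of 22.5 and 37.5 kb were 1 domain of 60.0 kb in the mof RNAi list.

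Among chromatin genes 1 of 4 of the MSL complex and roX list and none of 5 of the NSL complex were at control-only boundaries. The one was msl-1, the scaffold gene of the MSL complex (2L, 18681251 to 18683750, score -0.40), with a mof RNAi boundary 17.5 kb and a stage 15 boundary 5 kb away. Of 9 architectural and insulator genes there were 2. At su(Hw), an insulator protein gene (3R, 14306251 to 14308750, score -0.41), control domains of 20.0 kb on both sides were 1 mof RNAi domain of 40.0 kb, and the nearest stage 15 boundary was 20.0 kb away. At vtd, the gene of the cohesin subunit Rad21 (3L, score 0.21), the control boundary had a mof RNAi boundary 3.44 kb and a stage 15 boundary 1.25 kb away, and the gene was at a boundary in all 3 lists. Of 6 Trithorax and Brahma genes 1 was at a control-only boundary: brm, the ATPase gene of the Brahma complex (3L, 15981251 to 15983750, score -0.22), where control domains of 27.5 and 30.0 kb were 1 mof RNAi domain of 57.5 kb. Of 5 histone acetylation and deacetylation genes 1 was, the deacetylase gene Sirt2, which was also at a mof RNAi and a stage 15 boundary, each 5 kb from the control one. None of 5 Polycomb group genes was.

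Genes of ribosomes and of the proteasome, the protease that degrades tagged proteins, are active in most cells. Of 59 cytoplasmic ribosomal protein genes at control boundaries 3 (5.08%) were at control-only ones, and of 36 mitochondrial ribosomal protein genes 2 (5.56%), beside the 14.8% of all genes. Of 19 proteasome genes 4 (21.1%) were, but Prosalpha1 and its paralogue Prosalpha1R share 1 boundary. The RpS3 boundary (3R, 23356251 to 23358750, score -0.65) had a stage 15 boundary at its midpoint and lay 10.0 kb from a mof RNAi boundary, in a mof RNAi domain of 175 kb. The RpL27 boundary (3R, 25683751 to 25686250, score -0.53) had a stage 15 partner 2.50 kb away and the nearest mof RNAi boundary 22.5 kb away. The RpL10 boundary on 3L (score 0.01) separated control domains of 30.0 kb each, 1 domain of 60.0 kb in the mof RNAi list, and had its nearest stage 15 boundary 27.5 kb away. At Rpt5, an ATPase gene of the proteasome cap (3R, 23751251 to 23753750, score -0.32), control domains of 15.0 and 20.0 kb were 1 mof RNAi domain of 35.0 kb, and a stage 15 boundary had the same midpoint. At Rpt6, another cap ATPase gene (X, 21313751 to 21316250, score -0.45), the nearest mof RNAi boundary was 35.0 kb and the nearest stage 15 boundary 30.0 kb away. The boundary of Prosalpha1 and Prosalpha1R, a core particle subunit gene and its paralogue (2R, 7827501 to 7832500, score -0.03), lay inside a mof RNAi domain of 132.5 kb and beside 6 left-out bins. The mitochondrial genes were mRpL24 on 2L, 52.5 kb from a mof RNAi boundary, and mRpS17 on 2R, 3.44 kb from one.

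Of the genes of differentiated cells and of chemoreceptors, 3 were at control-only boundaries. Of 2 neuron and glia genes 1 was at a control-only boundary, nSyb, the synaptic vesicle SNARE gene (3L, 1638751 to 1641250, score -0.27), with mof RNAi and stage 15 boundaries both 7.5 kb away. None of the 7 muscle genes was at a control boundary, and none of 2 epidermis, gut and trachea genes or of 1 E(spl) gene was at a control-only one. Of 11 odorant and gustatory receptor genes 2 were, the gustatory receptor genes Gr36a on 2L and Gr47a on 2R, 35.0 and 52.5 kb from the nearest mof RNAi boundary.

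The longest run of control-only boundaries, of 6, covered 205 kb on 3R from RpL27 to Lnk. Its boundaries had scores of -0.53 at RpL27, 0.18 at LpR1 (a lipophorin receptor gene), 0.22 at CG17197, 0.19 at BG642167, -0.02 at CG5886 and -0.46 at Lnk (an adaptor gene of insulin signalling). The outer pair, RpL27 and Lnk, each had a stage 15 partner 2.50 kb away, and the 4 between them had none. The mof RNAi list had 1 boundary in the run, 140 kb from RpL27, so the region was covered by mof RNAi domains of 162.5 and 157.5 kb. Runs of 5 lay at CG42455 to CG6628 with dpr6 on 3L, within Myo81F and at plum to Tb with scrib on 3R, and at Proc-R to Ptp4E on X. At scrib 1 of the 3 boundaries inside the gene, the most negative (score -0.44), had a stage 15 boundary 0.313 kb and a mof RNAi boundary 3.44 kb away, and the other two lay 33.1 and 61.2 kb from the nearest mof RNAi boundary. At Ptp4E, a receptor tyrosine phosphatase gene (X, 4937501 to 4941250, score -0.56), a mof RNAi boundary lay 4.38 kb and a stage 15 boundary 0.625 kb away, while at CG32772, 29.4 kb off, the stage 15 boundary was at the control midpoint and the nearest mof RNAi boundary 25.0 kb away.

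**Figure D5:**
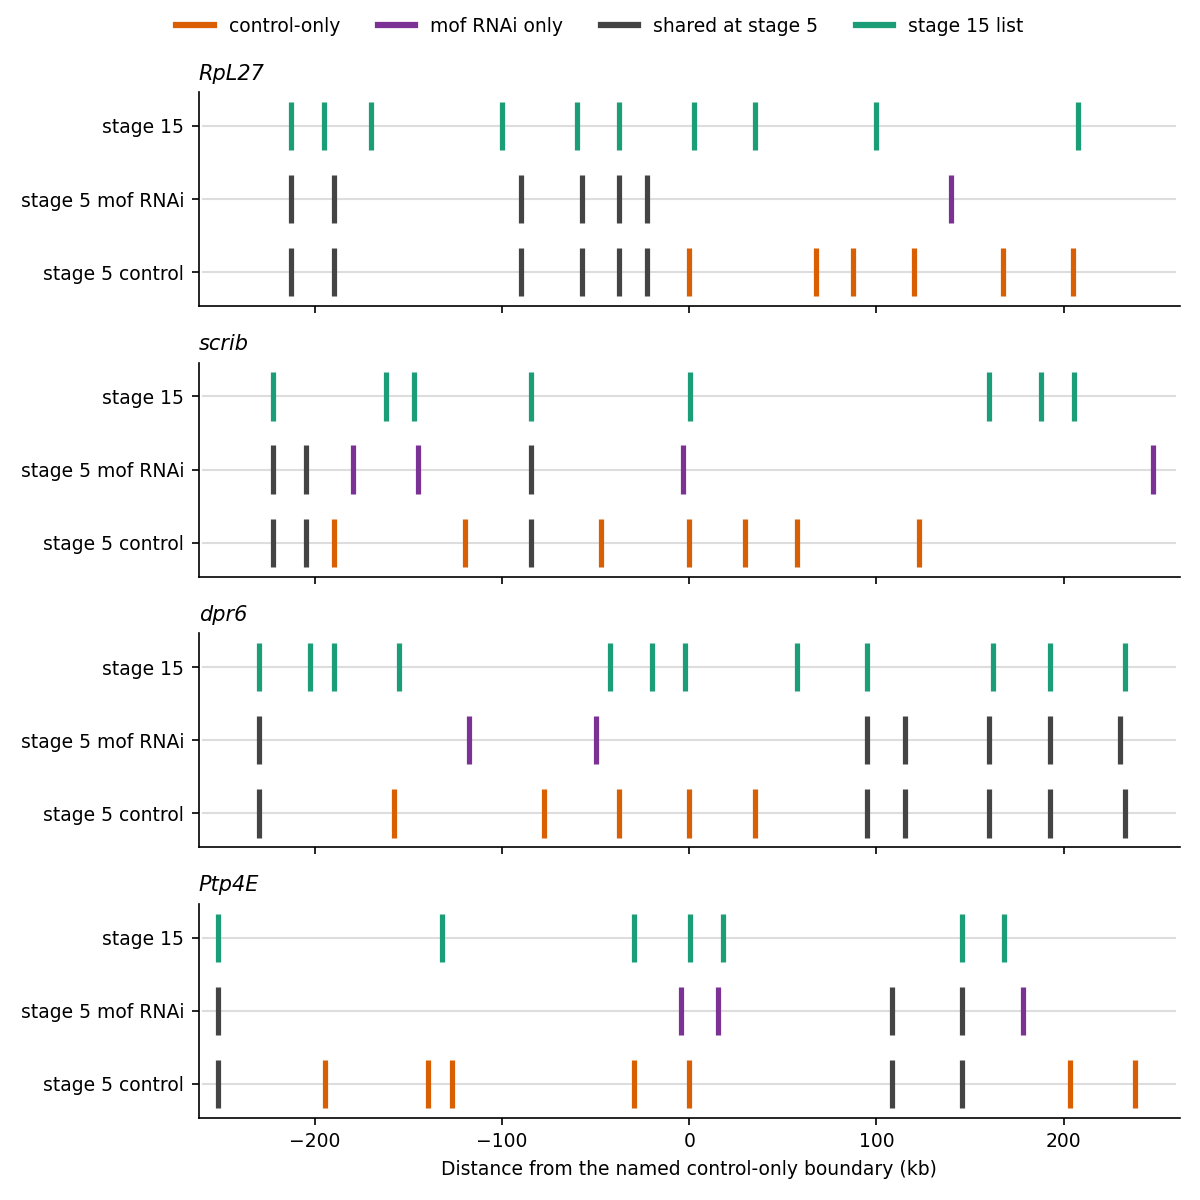
Boundaries of the stage 15, stage 5 mof RNAi and stage 5 control lists around the control-only boundaries at RpL27, scrib, dpr6 and Ptp4E, by distance in kb from the named boundary (horizontal axis). Control-only, mof RNAi only and shared boundaries are coloured as in the legend. At RpL27 the run of 6 control-only boundaries faces 1 boundary of the mof RNAi list, 140 kb from the named one.

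The longest mof RNAi domains that held control-only boundaries lay near centromeres, where many bins were left out. A domain of 371 kb at CG17684 on 2R held 3 of them, with scores of 0.17, 0.35 and 0.47, none with a stage 15 partner and with 17, 22 and 76 left-out bins beside them. A domain of 350.0 kb at Pzl on 3R held boundaries with scores of 0.36 and 1.13 among others, 5.94 and 7.19 kb from a stage 15 boundary and beside 35 and 38 left-out bins.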

How the data were processed

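Boundary lists called on bins of 2.5 kb of dm6 were used as the authors deposited them, 1 each for stage 5 mof RNAi, stage 5 control and stage 15, tied to groups by the stage and condition in their names and in the sample descriptions. The score that the authors deposited for each boundary has no stated scale and was used by rank, sign and median within the control list. Libraries were made with 1.8% formaldehyde and read as pairs of 75 bp, per the labels' protocols, and dm6 is the build per the submitters' processing notes. For the aligner, the boundary caller and its thresholds, names and settings were not given in the sources used here, and the lists carry no read counts. The 57 samples other than Hi-C were not analysed here.

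Midpoints were matched within 2.5 kb. Genes came from a RefSeq table of the Release 6 assembly, the same build as dm6, and 13842 of its protein-coding genes lie on the 5 arms. The table has no strand, so distances run to the nearer annotated end. A gene counted as at a boundary if its nearer end was no more than 2.5 kb from the midpoint. The listed symbols SA, Z4 and pho were not matched. Shares have 95% Wilson intervals, differences 95% Newcombe intervals and medians binomial order-statistic intervals. The members and the 18 gene lists were chosen with earlier results of these data known. Named are the 10 most negative scores with a stage 15 partner and the 10 without, the 5 boundaries in the longest mof RNAi domains, the longest run, and at most 6 genes per gene list. As alternatives the tolerance was set to 0, 5 and 10 kb, boundaries were matched one to one or taken by score, width and left-out bins, and the windows to stage 15 boundaries and genes, and the gene biotypes, were varied. Those for long genes were chosen after seeing the data. Sequence motifs and transcription start sites were not examined. The matching of boundaries and the joined class were tested on a copy of the control list with known boundaries removed or moved. The Newcombe interval was checked against a published example. The other steps were not tested in this way. Python 3.11.15, numpy 2.4.6, pandas 2.3.3, SciPy 1.17.1 and matplotlib 3.10.9 were used.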

Additional observations from a re-analysis of the deposited data

How the results depend on the processing

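The 15 settings tried gave 50 recomputed values, of which 30 stayed within the interval of the main value or, for counts, within 1.5 times of it. One-to-one matching gave the main values again. The sign changed in 1 case: the long gene difference of 12.3 points was -4.02 (-6.47 to 0.675) in the most negative 50% of scores, and it was 0.621 with negative scores only. The number of control-only boundaries was 785, 491 and 444 at tolerances of 0, 5 and 10 kb, 132 in the 50% of scores that are most negative, 284 with negative scores and 192 without left-out bins or wide boundaries. The stage 15 difference (control-only minus shared) was -27.8 points at 0 kb, -17.8 in the most negative 50%, -23.5 with negative scores and -25.6 with stage 15 matched within 10 kb. The gene end difference was -2.18 points (-8.75 to 2.35) in the most negative 50%, -11.1 with negative scores and -12.7 without left-out bins or wide boundaries, and the long gene difference was 7.81 points under this last setting. The share of joined boundaries was 22.9%, 50.5% and 57.2% at 0, 5 and 10 kb, so it follows the tolerance. The median mof RNAi domain across a control-only boundary was 82.5 kb, 72.5 kb at 0 kb and 92.5 kb at 10 kb. The same stretch around shared boundaries also had a median of 82.5 kb. For most shared ones it holds a mof RNAi boundary at the midpoint itself, so these medians do not compare single domains. The count of 18 listed genes was 8 with a window of 1 kb and 28 with one of 5 kb. The difference of X from autosomes had an interval above 0 at 0 kb (4.92 points, 0.302 to 9.75) and with negative scores (4.36 points, 0.397 to 8.86), and was 0.962 points at 10 kb. No paired analysis was possible because each condition is 1 pooled list, and for the same reason no replicate could be left out. The planned motif counts and the count by transcription start sites alone were not run. Left-out bins were planned for the mof RNAi map as well, but were examined in the control map only. The depth of the maps is unknown, so a boundary not called cannot be told from one below the reach of these libraries.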

Other observations

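Control-only boundaries were unevenly spread along the arms. Of 51 windows of 2.5 Mb with at least 20 control boundaries, the highest share was on 3L from 22.5 to 25 Mb, where 22 of 39 boundaries (56.4%) were control-only and 94.9% lay beside left-out bins. On 2R from 0 to 2.5 Mb 19 of 34 (55.9%) were control-only, and all lay beside left-out bins. The 3R window from 25 to 27.5 Mb, which holds the runs at RpL27 and scrib, had 25 of 58 (43.1%) with left-out bins beside 55.2%. On 2L from 7.5 to 10 Mb 3 of 50 (6%) were control-only. These windows were picked after their values were seen, and no test was made.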
